A study of Homo sapiens with 4 samples.

Results

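The annexin genes were followed in HCT116, a human cell line established from a colorectal carcinoma, with ANXA3 at their centre. The members were 10 annexin genes taken by symbol (ANXA1 to ANXA7, ANXA9, ANXA10 and ANXA11) out of 26255 genes listed. ANXA3 was singled out because its level differed between knockout and control in earlier results of these data, so its difference is a description and carries no test here, and the same holds for the other members in that comparison. Cells with C14orf159 knocked out (KO, 2 libraries) were set against control cells labelled as transfected with an empty vector (EV control, 2 libraries), whose file headers instead name AAVS1, a locus that editing studies commonly use as a harmless target. C14orf159, now named DGLUCY, encodes a protein of the mitochondrial matrix. Nothing in the labels says whether replicates were separate cultures or clones, so the spread between them may be technical in part.

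Annexins are cytosolic proteins that bind acidic phospholipids when calcium rises. They share a conserved core of repeats, which carries the calcium sites, and differ in the amino-terminal tail, through which several members bind S100 or other EF-hand proteins. In epithelial cells they take part in vesicle traffic, in the link between membrane and actin, in the resealing of torn membranes and, when exposed at the surface, in plasmin formation and signalling to leucocytes.

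The level of C14orf159 was 16.2 and 16.4 FPKM (fragments per kilobase of transcript, scaled to a fixed number of fragments) in the EV controls, 2.52 in KO 1 and 10.8 in KO 2. The libraries labelled KO thus kept 15.5% and 66.2% of the control mean, and they also differed from each other more widely than the controls did. For 2697 genes whose mean lay between 30 and 300 FPKM, the median absolute gap between replicates was 0.16 on the log2(FPKM + 1) scale for KO and 0.052 for EV control. For that reason each KO library is also given alone. The epithelial markers EPCAM, KRT8, KRT18, KRT19 and CDH1 were present in every library (22.8 FPKM or more), VIL1 was listed at 0 in 3 of the 4, and the leucocyte, fibroblast and endothelial markers PTPRC, CD3E, COL3A1, PDGFRB, DCN, PECAM1, CDH5 and VWF stayed at 0.135 FPKM or less, with CD68 at 1.88 to 2.87. Library depth is known from an estimate only, about 12.99 and 13.39 M (mega) fragments for the EV controls, 12.47 for KO 1 and 12.85 for KO 2.

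The start regions of 5 members are shown first, since they frame the values that follow: ANXA3 and ANXA1 stood lower in both KO libraries, ANXA5 stood higher in both, ANXA2 was the most abundant member, and ANXA10 was near 0 except in KO 2. Each sequence gives the 250 bases before the annotated start, from RefSeq on GRCh38.p14, written 5′ to 3′ on the strand of the gene. They lie at chr4:78551520-78551769 (plus strand) for ANXA3, chr9:73151615-73151864 (plus) for ANXA1, chr4:121696981-121697230 (minus) for ANXA5, chr15:60397987-60398236 (minus) for ANXA2 and chr4:168092287-168092536 (plus) for ANXA10. The deposited values rest on hg19, so these positions serve the sequences alone. Capitals mark any match to 5 motifs: the TCF/LEF core CTTTGA, the hypoxia response core ACGTG, the SP1 box GGGCGG and the AP-1 site TGANTCA, each on both strands, and the TATA box TATAAA on the strand of the gene.
ANXA3: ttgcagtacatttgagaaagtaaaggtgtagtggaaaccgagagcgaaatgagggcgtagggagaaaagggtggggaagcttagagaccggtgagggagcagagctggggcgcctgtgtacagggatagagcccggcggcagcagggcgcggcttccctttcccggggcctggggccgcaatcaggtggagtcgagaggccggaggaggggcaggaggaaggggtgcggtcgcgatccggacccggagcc
ANXA1: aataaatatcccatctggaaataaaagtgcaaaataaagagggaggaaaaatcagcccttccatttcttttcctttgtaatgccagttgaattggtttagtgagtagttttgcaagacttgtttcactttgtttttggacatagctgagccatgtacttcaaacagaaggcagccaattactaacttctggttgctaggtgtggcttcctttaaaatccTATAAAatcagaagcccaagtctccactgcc
ANXA5: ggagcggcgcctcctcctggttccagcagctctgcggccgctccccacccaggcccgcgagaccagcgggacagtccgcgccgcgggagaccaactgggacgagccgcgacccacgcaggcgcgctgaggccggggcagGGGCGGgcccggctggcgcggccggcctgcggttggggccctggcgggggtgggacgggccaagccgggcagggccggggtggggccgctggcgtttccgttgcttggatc
ANXA2: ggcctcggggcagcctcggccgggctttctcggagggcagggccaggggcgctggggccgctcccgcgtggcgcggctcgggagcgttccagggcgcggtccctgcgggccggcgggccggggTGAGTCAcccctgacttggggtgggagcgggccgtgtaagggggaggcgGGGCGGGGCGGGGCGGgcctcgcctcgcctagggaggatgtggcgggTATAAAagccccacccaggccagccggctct
ANXA10: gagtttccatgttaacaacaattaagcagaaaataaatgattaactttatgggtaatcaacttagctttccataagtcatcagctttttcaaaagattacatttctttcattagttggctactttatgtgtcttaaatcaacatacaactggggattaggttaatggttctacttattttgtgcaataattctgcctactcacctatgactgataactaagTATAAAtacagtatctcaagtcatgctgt

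The ANXA3 window holds no capitals: none of the 5 motifs matched there, its GC content was 64% and it held 18 CpG dinucleotides. The median over 35116 promoter windows of that length was 58% GC and 11 CpG. ANXA1 and ANXA10 differ in kind, with 38.4% and 31.2% GC, 0 CpG dinucleotides in each and a TATA box that starts 31 and 29 bases before the annotated start. ANXA2 combines 78% GC and 28 CpG dinucleotides with a TATA box at 31 bases, an AP-1 site at 127 bases and 3 overlapping SP1 boxes. ANXA5 was the richest of those shown in GC, at 78.8%, with 31 CpG dinucleotides and 1 SP1 box. All 10 members had an entry, with 14 windows in total, because ANXA4, ANXA6 and ANXA11 have several starts. The TCF/LEF core is of interest because the series title names Wnt/β-catenin signalling. It was searched as CTTTGA alone, and looser forms of it were not searched. CTTTGA was found in 0 of the 14 windows, against 11.2% of all windows, and with so few windows nothing is read from that. SP1 boxes were found in 7 windows (42.6% of all windows), the TATA box in 4 (6.8%), the hypoxia response core in 3, those of ANXA4, ANXA6 and ANXA9 (18.5%), and the AP-1 site in 1 (6.57%). In ANXA4 and ANXA6 the hypoxia core lies inside CACGTG, which reads alike on both strands and is also an E-box. These are matches of letters in short windows and say nothing of whether a factor binds.

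In the EV controls the annexins spanned 4 orders of magnitude. ANXA2 led, followed by ANXA1, ANXA3, ANXA5, ANXA11, ANXA7, ANXA6, ANXA4, ANXA9 and ANXA10, and the 2 control values of every gene lay above those of the next gene for all 9 neighbouring pairs. ANXA2 alone made up 50.4% of the summed FPKM of the 10 genes in each control, with ANXA1 at 23.1% and 23.4%. In both KO libraries the order was the same except that ANXA5 and ANXA3 changed places, ANXA3 moving from the third to the fourth position. Ranked among 23995 genes other than small RNA genes, ANXA3 was at position 391 and 393 in the EV controls, 760 in KO 1 and 866 in KO 2. By the same ranking ANXA2 lay between 84 and 125 in the 4 libraries. A further 3 annexin symbols were listed at 0 in every library.

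**Figure D1:**
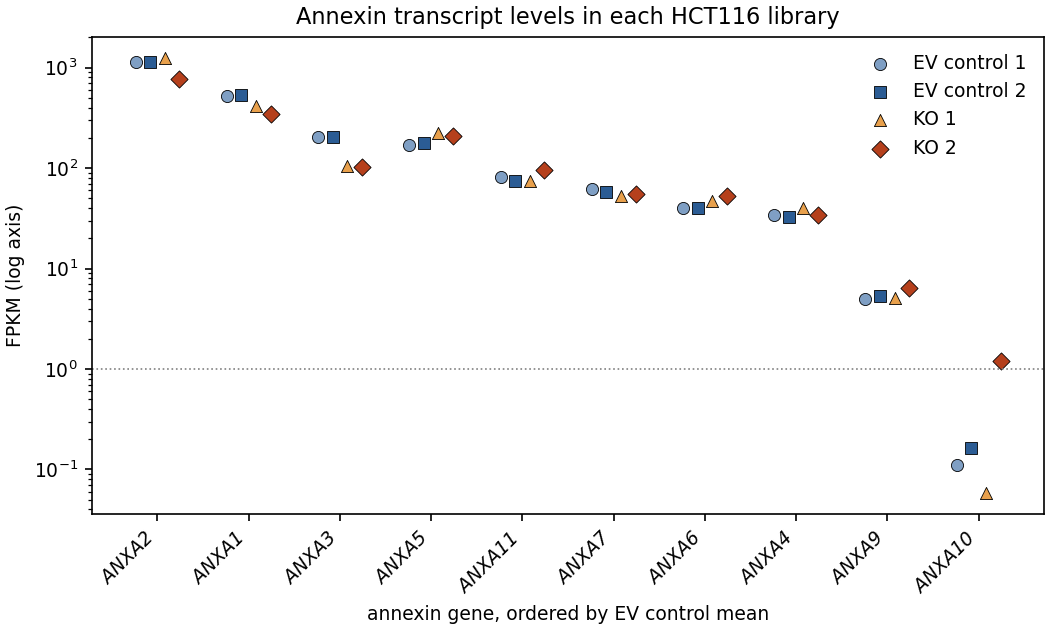
FPKM of the 10 annexin genes on a log axis, 1 point per library, ordered by the EV control mean, with a dotted line at 1 FPKM. ANXA3 stands at 202 and 206 FPKM in the EV controls and at 102 and 104 in the KO libraries, where it lies below ANXA5, and ANXA10 exceeds 1 FPKM in KO 2 alone.

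The study asked why C14orf159 limits migration, invasion and spheroid growth, and the annexins were compared between KO and EV control with that question in view. The comparison of all genes used limma with a mean-variance trend on log2(FPKM + 1) over 12701 genes that reached 1 FPKM in at least 2 libraries. Of the 10 members, 9 were tested, and ANXA10 did not reach that level. Of the 9, 0 passed an adjusted p of 0.05 (limma-trend, Benjamini-Hochberg), while 0.110% of all tested genes did, 0.0551% in each direction. The unadjusted limma-trend p was under 0.05 for 4 of the 9 and for 16.4% of all tested genes. These are counts only, since the members were chosen with this comparison known, and nothing is read from them. KO and EV control values did not overlap for 5 of the 9, with ANXA5 and ANXA6 higher and ANXA1, ANXA3 and ANXA7 lower in KO, and for 52.1% of all tested genes (26.5% higher, 25.6% lower). That share is close to the background, and nothing is read from it. The count of members past the threshold was 1 with median-of-ratios scaling or robust limma-trend, 5 without KO 1 and 3 without KO 2, again as a description. The median difference was 0.12 over the 9 members and 0.0031 over all tested genes (log2, KO minus EV control). Neither KO library alone showed such a shift. In KO 1 the median was -0.0046 over the members and -0.0043 over all tested genes. In KO 2 it was 0.028 and 0.014.

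ANXA3, a member abundant in neutrophils and often raised in carcinomas, had 206 and 202 FPKM in EV control 1 and 2, 104 in KO 1 and 102 in KO 2. All of the KO values lay below all of the control values, and the gap between the groups was far wider than the spread within either. KO 1 kept 51.0% and KO 2 50.1% of the control mean. The mean was 204 ± 2.63 in EV control against 103 ± 1.199 FPKM in KO (SD, n = 2 per group). The difference was -0.98 on the log2(FPKM + 1) scale, with an SE of 0.078 from the limma fit. That SE draws on the spread of other genes and does not measure the spread of ANXA3 alone. Both KO libraries stood at least 1.5-fold below the control mean for ANXA3 alone among the 9 tested members, and for 1.31% of all tested genes. The KO libraries lay close together for this gene, with a gap of 0.023 (log2), where 92.0% of the 2697 genes of similar level had a wider one. ANXA3 was singled out on this comparison, which favours genes whose KO libraries agree, so that share is a description only. ANXA3 made up 9.14% and 8.94% of the summed annexin FPKM in the EV controls, 4.72% in KO 1 and 6.09% in KO 2. By a rough estimate from its longest coding transcript, the value in each library rests on 2151 fragments or more.

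**Figure D2:**
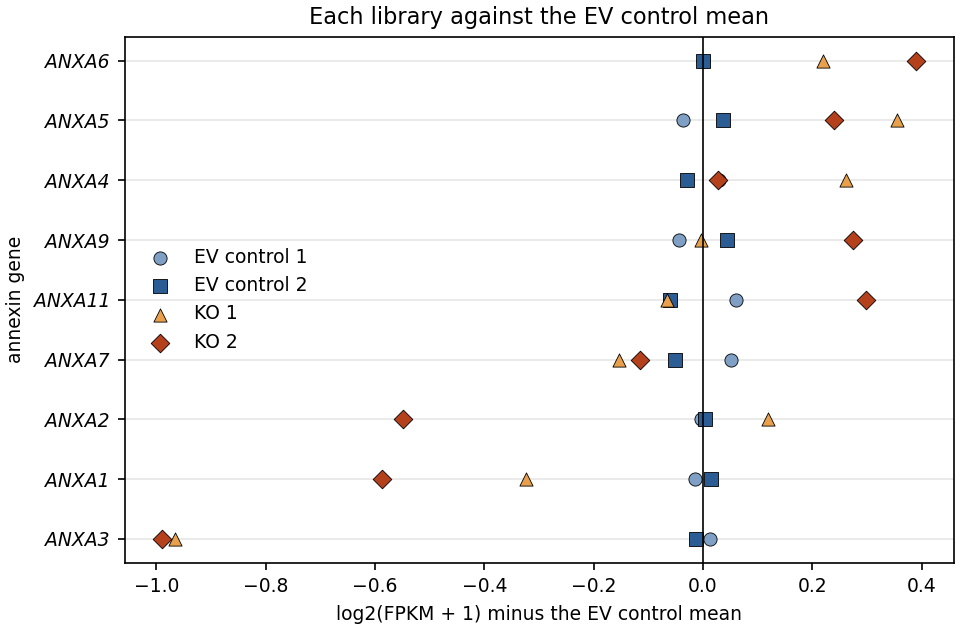
log2(FPKM + 1) of each library minus the EV control mean, for the 9 tested annexin genes, 1 point per library and genes ordered by the mean KO difference. The KO points of ANXA3 lie together at -0.97 and -0.99, whereas those of ANXA2 lie on opposite sides of 0.

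ANXA1 and ANXA2, which are among the members that bind S100 proteins through their tails, were the most abundant. ANXA1, a glucocorticoid-induced protein that restrains inflammation through formyl peptide receptors and is phosphorylated by the EGF receptor, had 519.9 and 531 FPKM in the EV controls, 419 in KO 1 and 349 in KO 2. Both KO values lay below both controls, at 79.8% and 66.5% of the control mean, and the difference was -0.46 (log2, SE 0.125). ANXA2, which joins S100A10 in a complex at the cell surface and under the plasma membrane, had 1136 and 1141.5 FPKM in the EV controls, 1236 in KO 1 and 778 in KO 2. The KO libraries went apart here, at 108.6% and 68.3% of the control mean, with a gap of 0.67 between them (log2) while EV control 1 minus EV control 2 was -0.0072. Rows for 3 ANXA2 pseudogenes, which can share reads with ANXA2, held 0.746 FPKM or less in every library.

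ANXA5, ANXA4 and ANXA6 are members with short tails or, for ANXA6, an extended core. ANXA5, which binds exposed phosphatidylserine and serves as a probe of apoptotic cells, had 171 and 179.6 FPKM in the EV controls, 224 in KO 1 and 207 in KO 2. Its groups did not overlap, and KO 1 and KO 2 reached 128.0% and 118.1% of the control mean. ANXA6, a scaffold between membranes and actin that also bears on cholesterol traffic, had 40.2 FPKM in each EV control, 46.9 in KO 1 and 52.9 in KO 2, again without overlap. The differences were 0.30 for ANXA5 (log2, SE 0.091) and 0.30 for ANXA6 (log2, SE 0.091). ANXA4, an epithelial member that aggregates vesicles, had 34.3 and 32.9 FPKM in the EV controls, 40.4 in KO 1 and 34.2 in KO 2. KO 2 lay between the controls for ANXA4, so the groups overlapped.

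ANXA7 and ANXA11 carry long tails that bind penta-EF-hand proteins. ANXA7, a membrane fusion factor also called synexin, had 61.4 and 57.2 FPKM in the EV controls, 53.2 in KO 1 and 54.7 in KO 2. Its groups did not overlap, although the difference of -0.13 (log2) was only a little wider than the gap of 0.10 between the controls. ANXA11, which tethers RNA granules to lysosomes, had 81.0 and 74.5 FPKM in the EV controls, 74.2 in KO 1 and 95.7 in KO 2. The KO values of ANXA11 lay on either side of the controls.

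ANXA9 and ANXA10 had the lowest levels. ANXA9, whose core lacks working calcium sites, had 4.92 and 5.29 FPKM in the EV controls, 5.08 in KO 1 and 6.38 in KO 2, and the groups overlapped. ANXA10, a protein of gastric epithelium, had 0.111 and 0.162 FPKM in the EV controls, 0.0587 in KO 1 and 1.197 in KO 2. After correction for the relative depth of the libraries, these values stood as 2, 3, 1 and 21 in whole numbers, within 0.24%. If 1 is a single fragment, KO 2 held 21 fragments and the other libraries 3 or fewer. ANXA10 was thus higher in KO 2 than in any other library, while KO 1 lay below both controls.

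Singly, the KO libraries each placed 4 of the 9 tested members above both controls and 4 below. In KO 1 the higher ones were ANXA2, ANXA4, ANXA5 and ANXA6, and the lower ones ANXA1, ANXA3, ANXA7 and ANXA11. KO 2 had ANXA5, ANXA6, ANXA9 and ANXA11 higher and ANXA1, ANXA2, ANXA3 and ANXA7 lower. For all tested genes the shares were 41.3% above and 42.8% below in KO 1, and 45.7% above and 41.4% below in KO 2. ANXA2 and ANXA11 were the members that changed sides between the KO libraries. The summed FPKM of the 10 genes was 2254 and 2265 in the EV controls, 2204 in KO 1 and 1682 in KO 2, and the low sum in KO 2 came with its lower ANXA2 and ANXA1.

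**Figure D3:**
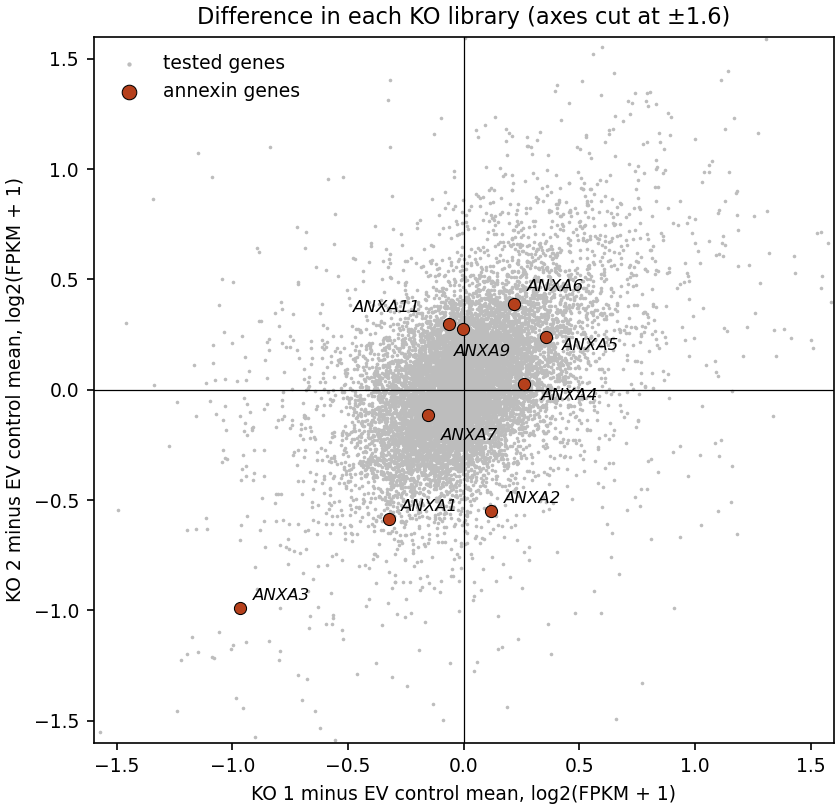
Difference from the EV control mean in KO 1 (x axis) and KO 2 (y axis), log2(FPKM + 1), with the tested genes in grey and the 9 tested annexin genes in red; both axes share the EV controls, so the grey cloud is drawn out along the diagonal by construction. ANXA3 lies at -0.97 and -0.99, apart from the other annexins, and ANXA2 lies at 0.12 and -0.55.

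The members lie on chromosomes 1, 2, 4, 5, 9, 10 and 15, and the tested genes on either side of each of the 9 tested members were examined in chromosome order. Beside ANXA3 on chromosome 4, 3 adjoining tested genes also stood lower in both KO libraries than in both controls. FRAS1, an extracellular matrix protein gene just before ANXA3, had 9.91 and 11.05 FPKM in the EV controls, 5.14 in KO 1 and 5.58 in KO 2. BMP2K, a kinase gene of the clathrin pathway just after it, had 6.29 and 5.08 FPKM, then 3.83 and 3.61. PAQR3, the next gene, which encodes a Golgi protein that binds RAF kinase, had 13.2 and 13.3 FPKM, then 9.70 and 8.70. Across FRAS1, ANXA3, BMP2K and PAQR3 the KO libraries kept between 49.1% and 73.1% of the control mean in KO 1 and between 50.1% and 65.6% in KO 2. None of these 3 neighbours passed over all genes (limma-trend, adjusted p = 0.121 for FRAS1, 0.214 for BMP2K and 0.183 for PAQR3).

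The genes shown beyond this run had no common direction. SOWAHB, CCNI and CCNG2, before FRAS1, and SCD5, after PAQR3, stood higher in both KO libraries than in both controls. SEPT11 stood lower in both. In KO 1 the difference was 0.50 for SOWAHB and 0.47 for CCNG2 (log2), against -0.46 for BMP2K and -0.42 for PAQR3. In KO 2 it was 0.15 for SOWAHB and 0.064 for CCNG2. MRPL1, before FRAS1, had 40.7 and 42.8 FPKM in the EV controls, 37.8 in KO 1 and 47.8 in KO 2, and CNOT6L before it had 3.74 and 3.56, then 3.79 and 3.49. ANTXR2, after PAQR3, had 1.45 and 1.57 FPKM, then 3.09 and 0.722, so its KO values went apart. The next genes, HNRNPD (222 and 227 FPKM, then 187 and 203) and HNRNPDL (67.4 and 70.2, then 66.1 and 59.6), again stood lower in both KO libraries, by less than the genes of the run. In all, 4 of the 8 tested genes nearest to ANXA3 were lower and 1 was higher without overlap, where 25.6% and 26.5% of all tested genes were, with median differences of -0.20 in KO 1 and -0.34 in KO 2 (log2). Of 12296 runs of 4 tested genes in order, 83 (0.675%) had all 4 genes lower in both KO libraries than in both controls. The run around ANXA3 was the 1 run in which each gene lay at least 0.42 (log2) below the control mean in each KO library, but that limit was set from this run after its values were seen, so the count is a description. Whether the position of ANXA3 has a part in its level was not tested.

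**Figure D4:**
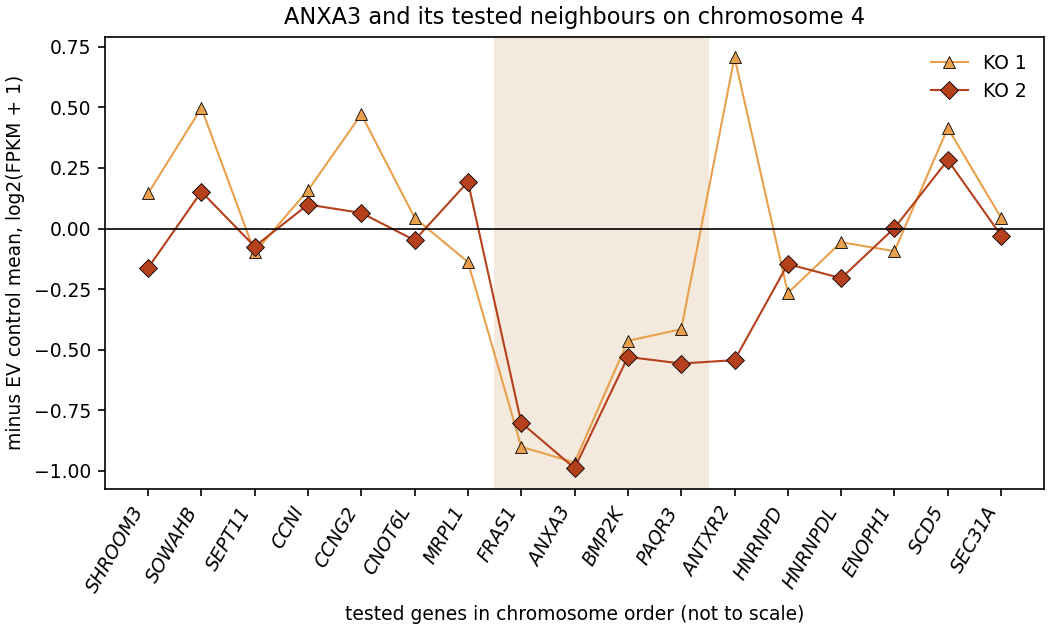
log2(FPKM + 1) minus the EV control mean in KO 1 and KO 2 for ANXA3 and the 8 tested genes on each side, in chromosome order and not to scale. FRAS1, ANXA3, BMP2K and PAQR3 (shaded) lie between -0.42 and -0.99 in both KO libraries, whereas the genes before the shaded run lie at or above -0.16.

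No other tested member was itself as far below the control mean in both KO libraries as that limit asks. None could therefore lie in such a run, whatever its neighbours did. Among the 4 tested genes on each side of ANXA1, 1 of 8 was lower and 4 were higher in both KO libraries than in both controls, with median differences of 0.15 in KO 1 and 0.14 in KO 2 (log2). Around ANXA5, 3 of 8 were lower and 1 was higher. Around ANXA6 on chromosome 5, which stood higher itself, 6 of 8 were higher and 2 lower, with medians of 0.16 and 0.21 (log2). Around ANXA9, whose own groups overlapped, 5 of 8 were higher and 3 lower. The counts higher and lower were 3 and 2 around ANXA2, 2 and 0 around ANXA4, 3 and 3 around ANXA7, and 2 and 2 around ANXA11. The genes on either side of ANXA6 were TNIP1 (18.5 and 17.8 FPKM in the EV controls, 20.8 and 23.7 in KO) and CCDC69 (2.90 and 3.08, then 3.60 and 3.89). Over all tested genes, 26.5% were higher and 25.6% lower in this sense, and with 8 neighbours per member these counts are descriptions.

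The genes most like ANXA3 were sought by the smallest root mean square distance over the 4 libraries, among 6668 candidates with a mean of at least 10 FPKM. MALT1, a paracaspase gene of NF-κB signalling, came first at a distance of 0.081 (log2). It had 19.2 and 19.8 FPKM in the EV controls, 9.68 in KO 1 and 8.30 in KO 2. HIST3H2A (distance 0.116), TSPAN1 (0.144), HNRNPH2 (0.167) and SOCS6 (0.172) followed, each lower in both KO libraries. TSPAN1, a tetraspanin gene, had 36.1 and 35.6 FPKM, then 20.8 and 20.3, and shared with ANXA3 the narrow gap between the KO libraries (0.030, log2). Likeness over 4 libraries is a description only. The lower KO levels of these genes follow from their choice by likeness to ANXA3, as does the narrow gap of TSPAN1 in part. Reads of HNRNPH2 can be shared with close paralogs.

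Genes that work with annexins were taken from a list of 37 partners, of which 30 were tested. Of these, 0 passed over all genes (limma-trend, adjusted p from 0.183 upwards), and without adjustment p was under 0.05 for S100A10 and PLAT on the higher side and 0 on the lower, against 9.23% and 7.22% of all tested genes. In KO and EV control, 15 of the 30 did not overlap, 6 higher and 9 lower, where 52.1% of all tested genes did not. The median difference was -0.042 over the list (log2).

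S100A10, which joins ANXA2, was among the partners that stood higher. It had 90.0 and 85.9 FPKM in the EV controls, 135 in KO 1 and 111 in KO 2, without overlap (limma-trend, adjusted p = 0.211). ANXA2 itself was higher in KO 1 and lower in KO 2. PLAT, the tissue plasminogen activator that binds ANXA2 at the cell surface, had 5.29 and 5.47 FPKM, then 12.97 and 9.07 (limma-trend, adjusted p = 0.183), while plasminogen (PLG) was listed at 0 in every library. S100A6 had 2894 and 2763 FPKM in the EV controls, 2393 in KO 1 and 2497 in KO 2, also without overlap. S100A11, the partner of ANXA1, overlapped at 252.6 to 287.8 FPKM over the 4 libraries, and S100A4 at 2221 to 2368. The formyl peptide receptor genes FPR1, FPR2 and FPR3, through which ANXA1 signals, held 0.318 FPKM or less in every library, and the annexin 2 receptor gene ANXA2R 0.4004 or less.

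**Figure D5:**
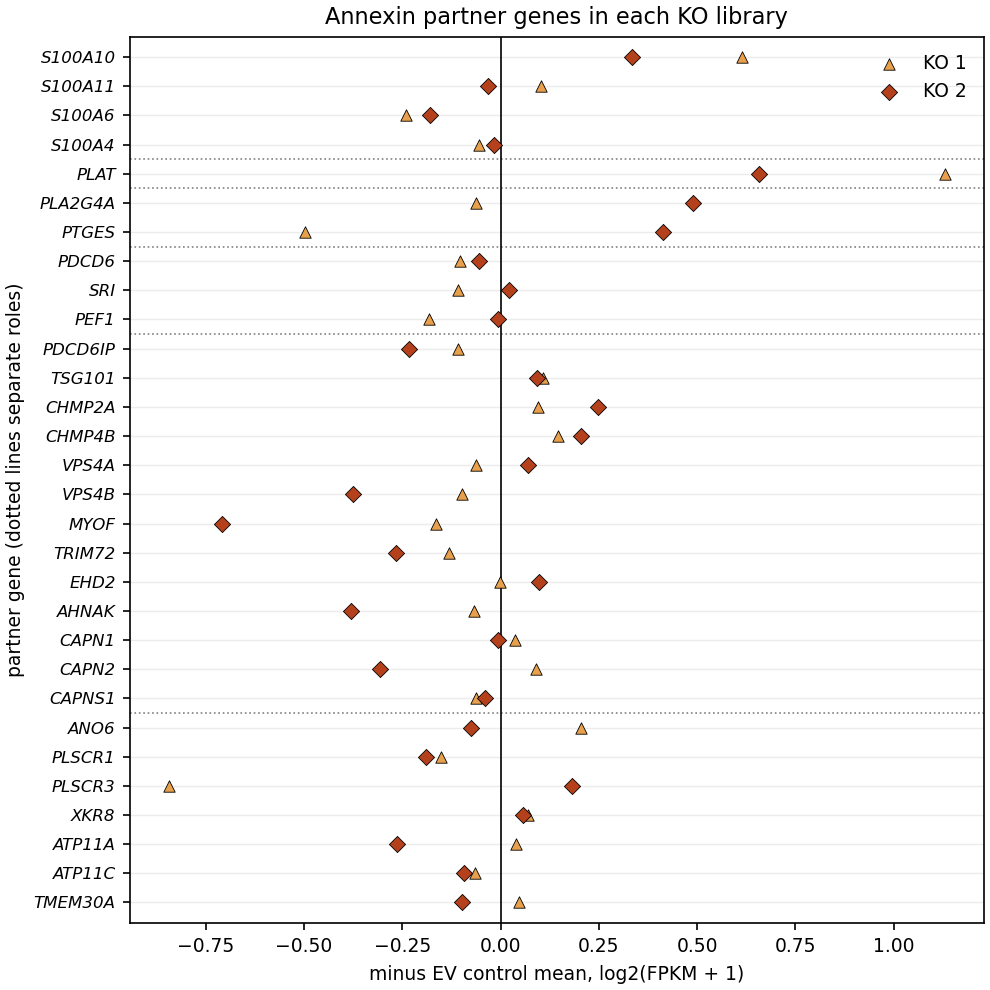
log2(FPKM + 1) minus the EV control mean in KO 1 and KO 2 for the 30 tested partner genes, grouped by role. PLAT (1.13 and 0.66) and S100A10 (0.61 and 0.33) lie on the higher side in both, and MYOF lies at -0.17 and -0.71.

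Of 13 tested repair and ESCRT-III genes (the complex that pinches off damaged membrane), 3 were higher and 5 lower without overlap, where 26.5% and 25.6% of all tested genes were, and 0 passed the test (limma-trend, 0 also at an unadjusted p under 0.05). CHMP4B, a subunit of the ESCRT-III filament, had 66.6 and 63.4 FPKM in the EV controls, 72.0 in KO 1 and 75.0 in KO 2, and CHMP2A had 112.8 and 111.4, then 119.9 and 133. MYOF, the myoferlin gene of plasma membrane repair, had 106 and 111.4 FPKM, then 96.8 and 66.1. PDCD6, the EF-hand partner of ANXA7 and ANXA11, had 128.6 and 124 FPKM, then 117.6 and 121.6, and SRI, the sorcin gene, overlapped.

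Among 7 tested genes of phosphatidylserine exposure, 1 was higher and 2 lower without overlap, against the same 26.5% and 25.6% of all tested genes. PLSCR1, a scramblase gene, had 13.2 and 14.4 FPKM in the EV controls, 12.3 in KO 1 and 12.0 in KO 2. PLSCR3 varied most between replicates, at 11.9 and 2.49 FPKM in the EV controls and 2.74 and 6.61 in KO. The prostaglandin synthase gene PTGES had 16.2 and 14.5 FPKM in the EV controls and went apart in KO, with 10.6 in KO 1 and 20.8 in KO 2, and the cytosolic phospholipase gene PLA2G4A had 7.34 and 6.68, then 6.65 and 10.2.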

How the data were processed

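RNA was extracted with the miRNeasy kit and libraries were made with the TruSeq stranded mRNA kit, per the labels' protocols. The deposited unit is FPKM for each gene symbol, as Cuffnorm writes it; per the submitters' processing notes, the authors used TopHat2 2.0.13, Bowtie2 2.2.3, SAMtools 0.1.19, Cuffnorm 2.2.1 and hg19. The headers name the library only. The sources used here do not give the annotation, the use of strand or how libraries were scaled to each other. Values were used as deposited.

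Genes with at least 1 FPKM in at least 2 of the 4 libraries (12701) were fitted as log2(FPKM + 1) with limma 3.58.1 (lmFit, eBayes with trend, 2.82 prior degrees of freedom) in R 4.3.3. The group was the only term, with Benjamini-Hochberg adjustment over all these genes. This scale understates the change of low genes. The code of the fit was run on simulated data with the same spread in both groups. In the deposited values the KO libraries differed from each other more widely than the controls. That run therefore does not show how the fit performs on these data. Log2 differences are KO minus EV control. Each SE given with them is from this fit, which draws on the spread of all genes, and is not that of the gene alone.

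The value of 1 fragment per kilobase was estimated from products of FPKM and transcript length. These came from 2008 genes with a single transcript in GENCODE release 29. Only products inside a preset window were used, from 107 to 119 genes per library, and that window bounds the result. Fragments per member use the longest coding transcript and are rough. Relative depth is the commonest ratio of low values to EV control 1 (0.974, 1.059 and 1.031 in EV control 2, KO 1 and KO 2). Gene order came from RefSeq GRCh38.p14 by symbol or synonym, small RNA genes left out (12365 genes, 97.4% of those tested), and was used for order alone.

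Named genes were the 10 members, the targeted gene, the partner list, the 5 genes most like ANXA3 and ANXA2 pseudogenes; genes beside ANXA3 and ANXA6 were named after their values were seen. Members and lists were chosen with earlier results of these data known. Alternatives were a replicate block, no filter or one at 5 FPKM, no small RNA genes, each library left out, pseudocounts of 0.1 and 0.5, quantile normalization, median-of-ratios scaling, and limma robust or without its trend.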

Additional observations from a re-analysis of the deposited data

How the results depend on the processing

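The ANXA3 difference kept its direction under all 14 alternatives and lay between -0.99 and -0.96 (log2). It was -0.99 without KO replicate 1 and -0.97 without KO replicate 2. Both KO values lay below both controls, so leaving out a library could not turn the sign. Changes of filter, trend, block or robust fitting leave the difference itself unchanged. This range is therefore a description and no test. The count of members past the threshold, which is no test because ANXA3 was chosen on this comparison, was 1 with median-of-ratios scaling and 1 with robust limma-trend (ANXA3 in each), and 0 in the other settings that kept all 4 libraries. Leaving out a library gave 0 to 5 members and 0 to 9 partner genes. Without KO replicate 1 these were ANXA1, ANXA2, ANXA3, ANXA6 and ANXA11 with 9 partners, and without KO replicate 2 ANXA1, ANXA3 and ANXA5 with 3 partners, the lone KO library being taken to vary like the controls. Without KO replicate 2, ANXA2, ANXA9 and ANXA11 had the opposite sign. No other alternative changed the sign of a tested member.

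Over all genes, 7 were higher and 7 lower. The counts were 3 and 3 with no filter, 3 higher in limma without the trend, 4 lower with quantile normalization, and 0 and 0 without small RNA genes (limma-trend, 0 of 9 members). Leaving out a library gave from 6 to 1381 higher and from 5 to 881 lower, with 1381 and 841 without KO replicate 1 and 799 and 881 without KO replicate 2. With a replicate block 4 were higher, and the ANXA3 difference was -0.98 with 0 members past the threshold. The gaps between replicates correlated at -0.0046 across genes in EV control and KO. That value does not settle whether libraries with the same replicate number were handled together, and the labels do not say. Beyond the smaller number of genes or libraries in some of these fits, the cause of the changes was not tested. Depth limits ANXA10, which rests on few fragments in 3 libraries.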
